A study of Mus musculus with 2 samples.

Results

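Cyclic nucleotide phosphodiesterases are the enzymes that end cyclic AMP and cyclic GMP signals. Transcripts of 10 of them, the products of Pde1c, Pde3a, Pde3b, Pde4b, Pde4d, Pde5a, Pde7b, Pde8a, Pde8b and Pde10a, were followed among the 27998 genes counted in single islet cells of WT and GKO mice. The 10 genes were selected by symbol, on the basis of levels and GKO to WT ratios already seen in these same counts, so everything below on those levels and ratios is a description. With 14 further phosphodiesterase genes the family comes to 24 measured genes. Single-cell RNA-Seq (droplet capture of transcript 3′ ends) was done on 1 library per genotype, each made from the pooled islets of 4 mice that were male, 8 weeks old, C57BL/6N and fed standard chow ad libitum. WT mice had both copies of the ghrelin gene, GKO mice (line GKO1) lacked ghrelin in every tissue through a germline knockout, and the groups were littermates. Islets were handpicked, dispersed to single cells and sorted for viable cells before capture. Because each pool is 1 library, mice cannot be told apart within it, no test between genotypes was possible, and the intervals below cover counting error only.

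Cyclic AMP is made by adenylyl cyclases and cyclic GMP by guanylyl cyclases, and phosphodiesterases hydrolyze them to inactive monophosphates. In β cells, cyclic AMP raised by incretin hormones amplifies glucose-stimulated insulin release, and in α and δ cells it promotes release of glucagon and somatostatin. Families of the enzyme differ in substrate, since the Pde4, Pde7 and Pde8 forms take cyclic AMP, Pde5a takes cyclic GMP, and the Pde1, Pde3 and Pde10 forms take both. Ghrelin is a peptide hormone whose receptor is found in islet δ cells.

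Cells were grouped by their transcripts. A cell was placed in the β-, α-, δ-like or Ppy-led class when insulin, glucagon, somatostatin or pancreatic polypeptide transcripts led and made up at least 10% of its unique molecular identifiers (UMIs, 1 for each captured transcript). The other cells were typed by the list of marker genes with most members detected. These groups held 2265 WT and 872 GKO β-like cells, 1048 WT and 1397 GKO α-like cells, 1414 WT and 1003 GKO δ-like cells, 717 WT and 669 GKO Ppy-led cells, 579 WT and 440 GKO endothelial-like cells, 255 WT and 582 GKO activated stellate-like cells, 193 WT and 412 GKO quiescent stellate-like cells, 198 WT and 461 GKO macrophage-like cells and 55 WT and 80 GKO ductal-like cells. Markers of each name were among its leading genes, Sst alone for the δ-like and Krt19 alone for the ductal-like group. The hormones and the nonendocrine marker lists also set the groups, so their place among the leading genes follows from the grouping. The Ppy-led class was named by its hormone, since its marker list held Ppy and Pyy only. The quiescent stellate-like group was led by Tagln, Rgs5, Acta2 and Myh11, genes of contractile cells of vessel walls. Its name is that of the marker list, and stellate cells were not told apart from such contractile cells. Levels are given as CPM, the UMIs of a gene in 1000000 UMIs of a group, with hormone UMIs counted in that total. They are compared within a gene only, since the counts are of 3′ ends.

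Ghrl, the gene deleted in GKO, stood at 276 CPM in the WT and 2.71 CPM in the GKO library. The WT library was the deeper one, with 158067110 UMIs against 103511757, and 18 barcodes occurred in both libraries. RNA freed from broken cells was in both: insulin transcripts came to between 3180.2 and 7358 CPM in every group other than β-like cells. Acinar marker transcripts summed to 386 CPM in WT and 76.2 CPM in GKO β-like cells, with all 6 markers detected in both. The sums were 415 and 194 CPM in α-like, 428 and 255 CPM in δ-like and 323 and 206 CPM in Ppy-led cells, and so were lower in GKO in all 4 endocrine classes. The β-like cells were 31.9% of WT and 13.7% of GKO cells, and the nonendocrine cells 23.3% and 37.9%. These are shares of the cells that survived dispersal and sorting, and do not give the makeup of the islets. By histology the paper found a larger β cell area per islet in GKO mice both younger (juvenile) and somewhat older than these, which is the opposite direction. The β-like levels and ratios below cover surviving cells only, and whether both pools kept the same kinds of β cells was not tested.

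Promoter windows are shown for the members whose ratios lay farthest from 0 in endocrine cells, as RefSeq sequence on GRCm38.p6 from 250 bases before to 50 bases after a transcription start. RefSeq windows were found for 8 of the 10 members, 18 windows in all. Capitals mark TGACG or its complement CGTCA, the core of the cyclic AMP response element, on the strand shown.
Pde10a chr17:8801495-8801794 (+ strand): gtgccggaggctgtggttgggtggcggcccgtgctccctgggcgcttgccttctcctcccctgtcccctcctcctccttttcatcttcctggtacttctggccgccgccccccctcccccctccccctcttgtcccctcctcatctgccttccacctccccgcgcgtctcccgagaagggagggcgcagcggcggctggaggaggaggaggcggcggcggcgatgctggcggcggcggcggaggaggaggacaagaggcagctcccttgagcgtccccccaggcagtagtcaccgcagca
Pde10a chr17:8849735-8850034 (+ strand): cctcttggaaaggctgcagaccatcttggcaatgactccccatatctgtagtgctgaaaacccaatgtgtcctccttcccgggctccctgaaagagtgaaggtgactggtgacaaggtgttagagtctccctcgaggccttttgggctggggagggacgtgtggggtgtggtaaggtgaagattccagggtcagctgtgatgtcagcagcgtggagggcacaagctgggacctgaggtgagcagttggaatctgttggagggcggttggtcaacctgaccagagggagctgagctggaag
Pde5a chr3:122728908-122729207 (+ strand): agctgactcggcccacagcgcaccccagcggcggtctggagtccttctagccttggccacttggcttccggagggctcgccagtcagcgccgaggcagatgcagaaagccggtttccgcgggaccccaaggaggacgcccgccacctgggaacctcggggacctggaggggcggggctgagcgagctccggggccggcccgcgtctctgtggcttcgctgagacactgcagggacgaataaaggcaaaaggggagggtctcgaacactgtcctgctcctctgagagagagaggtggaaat
Pde4b chr4:102421305-102421604 (+ strand): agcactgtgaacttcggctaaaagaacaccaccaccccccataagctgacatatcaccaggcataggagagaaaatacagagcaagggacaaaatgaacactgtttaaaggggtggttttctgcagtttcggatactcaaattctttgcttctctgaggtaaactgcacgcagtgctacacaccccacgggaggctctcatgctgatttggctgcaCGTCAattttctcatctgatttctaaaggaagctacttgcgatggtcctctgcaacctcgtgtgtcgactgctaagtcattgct
The full element TGACGTCA, searched on both strands, was in 0 of the 18 member windows and in 1.79% of 32851 RefSeq windows of the same length. The core TGACG, which the full element contains, was in 3 member windows, 1 each of Pde4b, Pde8a and Pde8b, against 20.8% of all windows. The table holds 4 Pde4b windows, of which the 1 with the core is shown, where it starts 34 bases before the transcription start, and the other 3 hold no core. The only windows of Pde10a and Pde5a in the table, shown here in full, held no core. The first Pde10a window and the Pde5a window were rich in G and C, at 71.3% and 66.3%, against a median of 52.7% over all windows, while the second Pde10a window was at 56.7%. In the GENCODE annotation of the same assembly Pde10a spans chr17:8525372-8986648 on the plus strand with 14 transcripts, and Pde5a spans chr3:122728947-122859374 on the plus strand with 4. The counts do not separate the transcripts of a gene.

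A pair of a member and a cell group was read when it had at least 100 UMIs over both libraries, and a log2 ratio of 0.5 or more either way is called past the fold. Of 90 pairs 51 had enough UMIs: 33 of 40 in endocrine classes, of which 5 lay past the fold upward in GKO and 3 downward, and 18 of 50 in nonendocrine types, of which 2 lay upward and 1 downward. In β-like cells 9 members had enough UMIs, 2 lay past the fold upward and 1 downward, where 3.8% and 2.58% of all 11907 genes read there did so. In α-like cells 8 members had enough UMIs, 2 lay past the fold upward and 1 downward, against 2.67% and 2.48% of all genes. In δ-like cells 9 members had enough UMIs, 0 lay past the fold upward and 1 downward, against 2.35% and 2.5%. In Ppy-led cells 7 members had enough UMIs, 1 lay past the fold upward and 0 downward, against 2.8% and 1.73%. The endothelial-like cells had 1 of 5 members past the fold upward and 0 downward (all genes, 3.27% and 3.37%), and the activated stellate-like cells 0 upward and 1 downward of 5 (all genes, 9.59% and 5.52%). None of the 4 members read in quiescent stellate-like cells was past the fold (all genes, 7.1% and 4.65%), nor was any of the 2 in macrophage-like cells (all genes, 10.1% and 4.68%). In ductal-like cells 1 of 2 was upward and 0 downward (all genes, 14.5% and 6.88%). The members were chosen on these ratios, so their counts are given beside those shares and nothing is read from the gap. The median ratio of the members read was 0.33 in β-like, 0.10 in α-like, 0.13 in δ-like and 0.07 in Ppy-led cells, where all genes had 0.09, 0.05, 0.03 and 0.06. In endothelial-, activated stellate- and quiescent stellate-like cells it was 0.21, -0.03 and -0.12, where all genes had 0.04, 0.09 and 0.01. The 39 pairs under 100 UMIs were given no ratio.

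**Figure D1:**
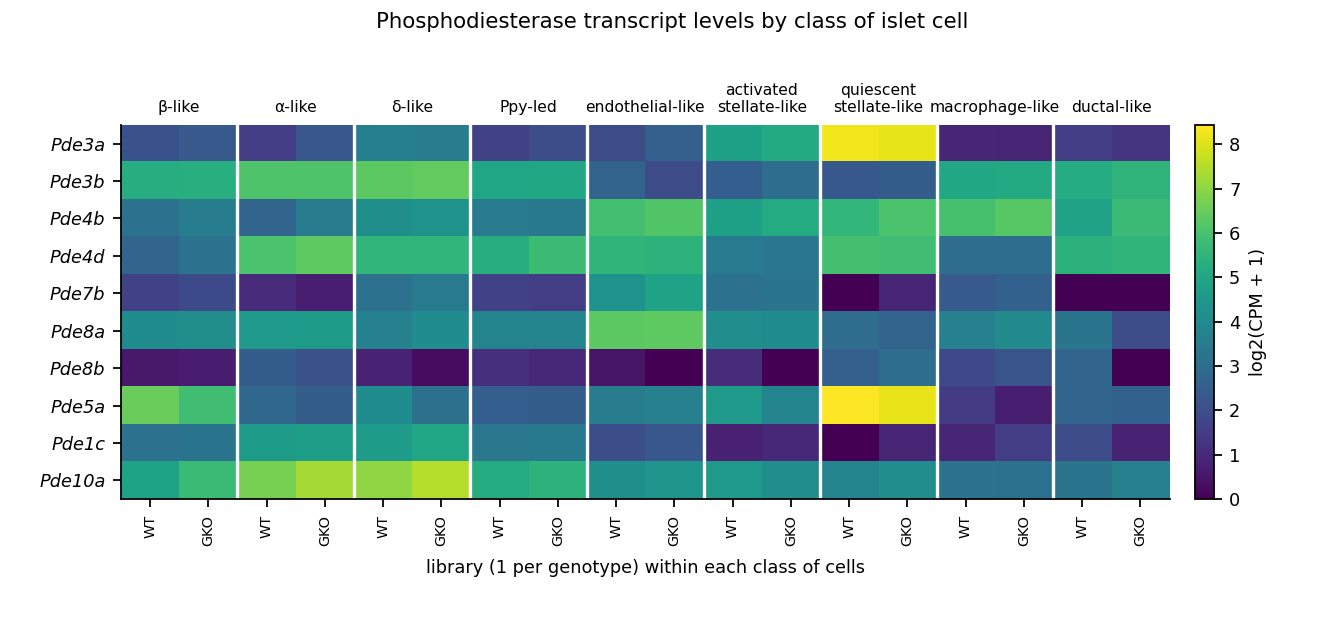
Levels of the 10 members as log2(CPM + 1), by color, with genes in rows and the WT and GKO library of each of 9 cell groups in columns. Pde10a is brightest in α- and δ-like cells, Pde5a in quiescent stellate-like and then β-like cells, Pde3a in quiescent stellate-like cells and Pde8a in endothelial-like cells, in both libraries.

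Pde10a, which hydrolyzes both cyclic nucleotides, was highest in δ- and α-like cells and next in β-like and Ppy-led cells, and in all 4 of these classes the GKO library was the higher one. In δ-like cells it stood at 130.2 CPM in WT and 182 CPM in GKO, a log2 ratio of 0.48 (interval, 0.40 to 0.57), just inside the fold. In α-like cells it stood at 104 CPM in WT and 158 CPM in GKO, a ratio of 0.61 (interval, 0.52 to 0.70). In β-like cells it reached 28.5 CPM in WT and 53.0 CPM in GKO, from 2539 UMIs in WT and 1738 in GKO, a ratio of 0.89 (interval, 0.80 to 0.98). The β-like ratio was the largest of the 4. The intervals cover counting error only, and the difference between classes was not tested. Ppy-led cells had 36.7 CPM in WT and 43.0 CPM in GKO, a ratio of 0.23 (interval, 0.07 to 0.39), which is inside the fold as well. The ranges of the 2 libraries overlapped between δ- and α-like cells and between β-like and Ppy-led cells, and were apart between α- and β-like cells. These ranges are of CPM with hormone UMIs counted, which lowers β-like values most. Outside the endocrine classes it was lower, at 22.6 and 16.7 CPM in activated stellate-like cells, 17.4 and 20.0 CPM in endothelial-like cells and 8.31 and 8.05 CPM in macrophage-like cells. RNA freed from other cells, scaled by hormone transcripts of the other classes, would give at most 2.55 CPM of Pde10a in α-, δ-like or Ppy-led cells and 6.96 and 7.07 CPM in WT and GKO β-like cells.

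The Pde10a difference in β-like cells was spread over many cells. At least 1 UMI was found in 48.6% of WT and 62.3% of GKO β-like cells, with up to 15 and 22 UMIs in a single cell. The tenth of cells with most Pde10a held 48.3% of its UMIs in WT and 39.7% in GKO. With every cell thinned to 5000 UMIs, 12.4% of WT and 21.8% of GKO β-like cells had a UMI. So did 35.7% of WT and 45.6% of GKO α-like cells, 37.6% of WT and 47.3% of GKO δ-like cells and 13.5% of WT and 16.042% of GKO Ppy-led cells. In macrophage-like cells, which serve as the background for free RNA, the shares were 2.67% and 1.61% thinned and 5.05% of WT and 3.25% of GKO cells unthinned, at median depths of 10402 and 9028 UMIs against 37124 and 35811 in β-like cells. Thinning left out 7 WT and 1 GKO β-like cells, 11 and 15 α-like cells, 17 and 11 δ-like cells, 1 and 2 Ppy-led cells and 11 and 26 macrophage-like cells with fewer UMIs. Unthinned, a UMI was found in 57.2% of WT and 68.9% of GKO α-like, 58.7% of WT and 67.6% of GKO δ-like and 37.9% of WT and 43.9% of GKO Ppy-led cells.

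Within β-like cells the CPM of Pde10a was lower where insulin made up more of the transcripts, and the GKO library was the higher one at each insulin share. Cells with 10% to 25% insulin stood at 59.8 CPM in WT and 79.3 CPM in GKO, a log2 ratio of 0.41. Cells with 25% to 60% insulin stood at 34.0 and 57.1 CPM, a ratio of 0.75. Cells with 60% insulin or more stood at 24.3 and 48.5 CPM, a ratio of 1.00. By depth, β-like cells cut into 3 equal groups gave, from the shallowest to the deepest, ratios of 0.80, 0.89 and 0.95. The lowest insulin bin held 53 WT and 37 GKO cells, and its interval included 0. Insulin UMIs are part of the CPM total, so a larger insulin share by itself lowers the CPM of other genes. From the lowest to the highest insulin bin in WT, Pde3b went from 59.8 to 31.8 CPM and Pde8a from 21.6 to 14.4 CPM. Pde5a alone of the members went the other way in WT, from 50.4 to 88.2 CPM. In GKO it went down, from 66.6 to 51.2 CPM.

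The difference in α-like cells held at low and high glucagon share, with ratios of 0.55 and 0.67 below and above a glucagon share of 26%. In δ-like cells the corresponding ratios were 0.47 and 0.50 below and above a somatostatin share of 18%. In Ppy-led cells they were 0.06 and 0.43 below and above a pancreatic polypeptide share of 34%. Leaving out every endocrine cell with at least 3 markers of a nonendocrine type moved the α-like ratio from 0.61 to 0.48, which is inside the fold. The δ-like ratio, inside it already, went from 0.48 to 0.32. That exclusion took 32.3% of WT and 28.3% of GKO α-like cells. With acinar markers not counted, it took 3.34% and 3.58% of them, and the ratios were 0.59 in α-like, 0.46 in δ-like and 0.89 in β-like cells.

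**Figure D2:**
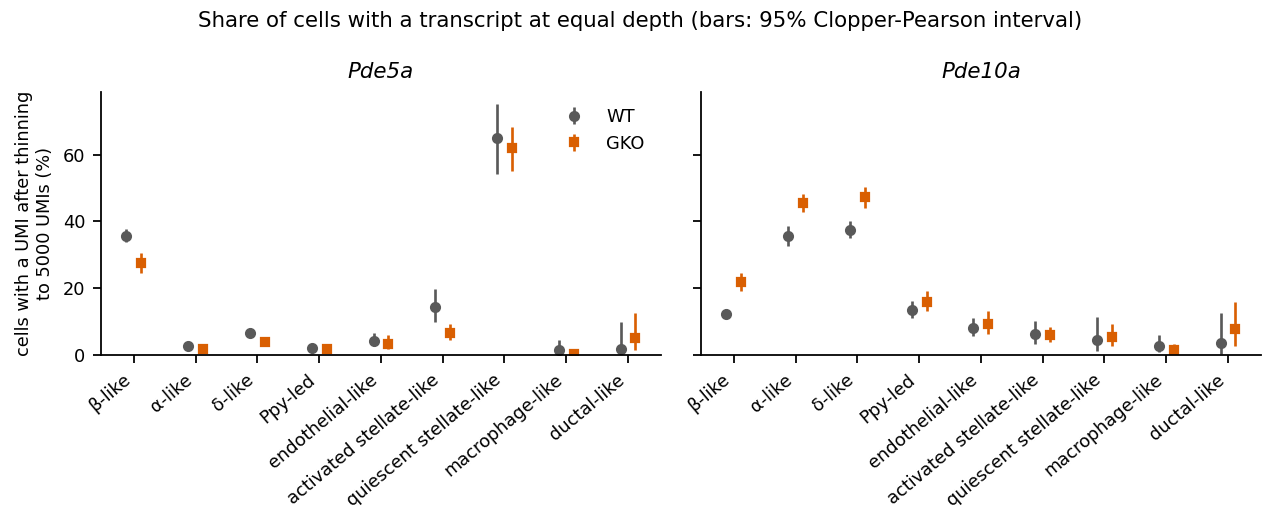
Percentage of cells with at least 1 UMI of Pde5a or Pde10a, among the cells of each group that had 5000 UMIs or more, each thinned to 5000. WT (circles) is beside GKO (squares), with exact binomial intervals that cover counting error only. Cells with fewer UMIs were left out: 107 of 193 WT and 189 of 412 GKO quiescent stellate-like cells, and 144 of 579 WT and 119 of 440 GKO endothelial-like cells. For Pde10a the GKO points lie above the WT points in the α-, β-, δ-like and Ppy-led classes. For Pde5a they lie below them in every group but ductal-like cells.

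Pde1c, a calmodulin-activated enzyme that takes both nucleotides, was highest in δ- and α-like cells, as Pde10a was. It stood at 23.6 and 30.7 CPM in WT and GKO δ-like cells, 23.3 and 25.4 CPM in α-like cells, 9.15 and 9.70 CPM in Ppy-led cells and 7.97 and 8.50 CPM in β-like cells. The log2 ratios of these classes were 0.38, 0.12, 0.08 and 0.09, all inside the fold, and the interval of the δ-like ratio, 0.17 to 0.59, lay above 0. Across the 18 sums (9 groups in 2 libraries) its profile went with that of Pde10a, with a Pearson correlation of 0.90 over log2(CPM + 1). These sums share libraries and depth, so the coefficient is a description.

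Pde3a and Pde3b, the cyclic GMP-inhibited pair that hydrolyzes both nucleotides, were highest in different groups. Pde3a stood at 307 CPM in WT and 276 CPM in GKO in quiescent stellate-like cells, its highest level. It was at 27.4 and 34.9 CPM in activated stellate-like cells, 11.5 and 10.9 CPM in δ-like cells and 3.32 and 4.18 CPM in β-like cells. Pde3b, the form through which insulin lowers cyclic AMP in fat cells, was highest in δ-like cells, at 78.0 CPM in WT and 85.0 CPM in GKO, and α-like cells, at 68.6 and 67.5 CPM. It was at 37.1 and 39.0 CPM in β-like, 30.5 and 32.0 CPM in Ppy-led, 31.5 and 34.7 CPM in macrophage-like and 36.7 and 44.0 CPM in ductal-like cells, and at or below 7.10 CPM in endothelial- and stellate-like cells. The β-like totals held the largest hormone share, which lowers the β-like CPM beside that of the other classes. The Pde3b ratios in the 4 endocrine classes ran from -0.02 to 0.13, and the β-like interval was -0.02 to 0.17. The Pde3a ratio in quiescent stellate-like cells was -0.15 (interval, -0.35 to 0.05).

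Pde5a, which is specific for cyclic GMP and is the target of sildenafil, was lower in GKO past the fold in β-, δ- and activated stellate-like cells. In β-like cells it stood at 90.4 CPM in WT and 56.7 CPM in GKO, from 8046 UMIs in WT and 1860 in GKO, a log2 ratio of -0.67 (interval, -0.75 to -0.60). δ-like cells had 16.4 CPM in WT and 7.65 CPM in GKO, from 274 UMIs in WT and 84 in GKO, a ratio of -1.10 (interval, -1.47 to -0.74). Activated stellate-like cells had 22.6 CPM in WT and 13.0 CPM in GKO, a ratio of -0.79 (interval, -1.31 to -0.27). In quiescent stellate-like cells, the highest level of any group, the libraries had 346 CPM in WT and 283 CPM in GKO, a ratio of -0.29 (interval, -0.48 to -0.10) that is inside the fold with an interval below 0. In α-like cells (6.07 and 4.64 CPM) and Ppy-led cells (4.75 and 4.56 CPM) the intervals of the ratio included 0. The GKO value was the lower one in every group but endothelial-like cells (10.9 and 11.7 CPM), and all groups come from the same 2 libraries. Of all genes, from 50.9% (quiescent stellate-like) to 69.1% (β-like) were higher in GKO in a group. The macrophage-like cells, taken as background, stood at 1.75 CPM in WT and 0.635 CPM in GKO. These levels rest on 4 UMIs in WT and 3 in GKO, too few for a ratio.

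At 5000 UMIs per cell, Pde5a was found in 35.7% of WT and 27.4% of GKO β-like cells and in 6.59% of WT and 3.83% of GKO δ-like cells. In macrophage-like cells it was found in 1.60% of WT and 0.230% of GKO cells. Without thinning, 89.1% of WT and 77.5% of GKO β-like cells and 15.0% of WT and 7.18% of GKO δ-like cells had a UMI. The insulin transcripts found in δ-like cells would bring 1.01 CPM of Pde5a in WT and 0.598 CPM in GKO if each came with the Pde5a of β-like cells. The measured levels were 16.4 and 7.65 CPM. Whether free RNA keeps that proportion of Pde5a to insulin was not tested. Markers of quiescent stellate-like cells summed to 26.6 CPM in WT and 39.2 CPM in GKO δ-like cells, with all 7 detected in both libraries, and to 549.8 and 403 CPM in activated stellate-like cells, where they were lower in GKO as Pde5a was. Their part in the Pde5a values was not tested. In β-like cells thinned to 5000 UMIs the ratio was -0.48, just inside the fold.

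Pde5a was lower in GKO in the β-like cells with at least 25% insulin, and the few cells with less insulin had an interval on both sides of 0. Cells with 60% insulin or more stood at 88.2 CPM in WT and 51.2 CPM in GKO, a ratio of -0.78. Cells with 25% to 60% stood at 95.4 and 63.6 CPM, a ratio of -0.58. Cells with 10% to 25% stood at 50.4 and 66.6 CPM, a ratio of 0.40 whose interval (-0.09 to 0.89) included 0 and which rests on 70 and 73 UMIs. From the shallowest to the deepest of the 3 depth groups the ratios were -0.52, -0.77 and -0.78. The ratios of Pde5a and Pde10a lay on opposite sides of 0 in both upper insulin bins and in all 3 depth groups.

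**Figure D3:**
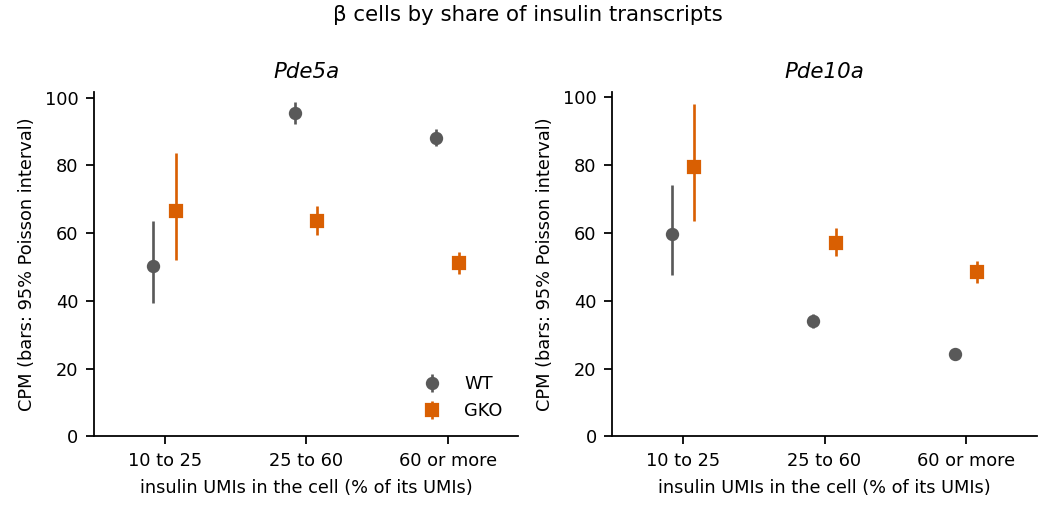
Pde5a and Pde10a in CPM (vertical axis, from 0) in β-like cells grouped by the share of their UMIs that is insulin (horizontal axis, 3 bins), WT as circles and GKO as squares with exact Poisson intervals. From 25% insulin upward Pde5a is lower and Pde10a higher in GKO, and in the lowest bin the intervals of WT and GKO overlap for both genes.

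Pde4b, a cyclic AMP-specific member, is known for restraining cyclic AMP in immune cells. It was highest in macrophage-like cells (61.7 and 74.1 CPM) and endothelial-like cells (58.0 and 70.1 CPM). By CPM it was lowest in α-, β-like and Ppy-led cells, but hormone UMIs are part of these totals and lower β-like values most. In α-like cells it stood at 5.66 CPM in WT and 10.997 CPM in GKO, from 82 UMIs in WT and 206 in GKO, a ratio of 0.96 (interval, 0.58 to 1.35). In ductal-like cells it stood at 28.2 CPM in WT and 52.9 CPM in GKO, from 30 UMIs in WT and 71 in GKO, a ratio of 0.91 (interval, 0.27 to 1.57). The GKO value was the higher one in 8 of the 9 groups, with Ppy-led cells (10.0 and 9.70 CPM) the exception. All groups come from the same 2 libraries. Of all genes, from 50.9% (quiescent stellate-like) to 69.1% (β-like) were higher in GKO in a group. The Pde4b intervals included 0 in δ-like, Ppy-led, activated stellate-, quiescent stellate- and macrophage-like cells. With cells thinned to 5000 UMIs, Pde4b was in 19.8% of WT and 32.0% of GKO macrophage-like cells and in 2.80% of WT and 4.99% of GKO α-like cells. Without thinning, 38.4% of WT and 44.7% of GKO macrophage-like cells and 7.44% of WT and 11.5% of GKO α-like cells had a UMI. With cells weighted equally the ductal-like ratio was 0.48, inside the fold.

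Pde4d, a close relative of Pde4b, was instead highest in α-like cells, at 65.5 CPM in WT and 80.3 CPM in GKO, a ratio of 0.29 (interval, 0.18 to 0.41). In Ppy-led cells it stood at 37.6 CPM in WT and 54.2 CPM in GKO, a ratio of 0.53 (interval, 0.38 to 0.67), and in δ-like cells at 46.2 CPM in WT and 46.4 CPM in GKO, a ratio of 0.01 (interval, -0.16 to 0.17). In β-like cells, where hormone UMIs lower the CPM most, it was near its lowest, at 5.68 CPM in WT and 8.32 CPM in GKO. That is a ratio of 0.55 (interval, 0.33 to 0.77). Free RNA would give 3.31 and 3.29 CPM of it there, and its level in WT went from 33.1 CPM at 10% to 25% insulin to 1.98 CPM at 60% or more. In that top bin GKO stood at 4.04 CPM, a ratio of 1.02. At 10% to 25% and 25% to 60% insulin the ratios were -0.14 and 0.26, and both intervals included 0. The β-like ratio was inside the fold under 4 of 14 alternative settings, over a range of 0.44 to 1.08. The Ppy-led ratio was inside it under 4, over a range of 0.40 to 0.56.

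Pde7b, Pde8a and Pde8b are cyclic AMP-specific enzymes, and the Pde8 forms are known for their insensitivity to the common inhibitor IBMX. Pde7b was highest in endothelial-like cells, at 18.8 CPM in WT and 28.1 CPM in GKO, from 93 UMIs in WT and 101 in GKO, a ratio of 0.58 (interval, 0.16 to 1.00) that was 0.43 with cells weighted equally. Elsewhere it did not exceed 9.83 CPM. Pde8a was highest in endothelial-like cells as well, at 78.4 CPM in WT and 79.6 CPM in GKO, a ratio of 0.02 (interval, -0.20 to 0.25). It stood at 22.2 and 23.4 CPM in α-like and 16.3 and 17.0 CPM in β-like cells, where hormone UMIs lower the CPM most. Its δ-like values, 12.1 and 16.4 CPM, gave a ratio of 0.43 (interval, 0.13 to 0.73). Pde8b was low in every group, at most 7.09 CPM. In α-like cells, the only group with enough UMIs, Pde8b stood at 4.62 CPM in WT and 3.26 CPM in GKO, from 67 UMIs in WT and 61 in GKO, a ratio of -0.51 (interval, -1.03 to 0.02). Pde8b had no UMI in GKO endothelial-, activated stellate- or ductal-like cells, which allows levels of up to 0.835, 0.575 and 2.23 CPM at 3 UMIs. The upper ends of the exact Poisson intervals of these zeros were 1.027, 0.707 and 2.75 CPM. The α-like ratio was inside the fold under 5 of 14 alternative settings, and its interval included 0.

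Most of the pairs under 100 UMIs were low. Pde3a stood at 1.86 CPM in WT and 3.84 CPM in GKO in α-like cells, from 27 UMIs in WT and 72 in GKO, and at 2.14 and 2.96 CPM in Ppy-led cells. It stood at 2.83 and 5.01 CPM in endothelial-like cells and at or below 1.88 CPM in macrophage- and ductal-like cells. Pde1c did not exceed 3.897 CPM in any of the 5 nonendocrine types. Pde4d was at 9.85 and 9.01 CPM in activated stellate-like and 7.0005 and 7.20 CPM in macrophage-like cells. Pde5a was at 10.9 and 11.7 CPM in endothelial-like and 5.65 and 5.21 CPM in ductal-like cells. Pde8a was at 11.8 and 15.2 CPM in macrophage-like, 7.04 and 5.42 CPM in quiescent stellate-like and 8.47 and 2.98 CPM in ductal-like cells. Pde8b was at 0.778 and 0.182 CPM in δ-like cells, from 13 UMIs in WT and 2 in GKO, and at 0.505 and 0.610 CPM in β-like cells. Pde10a was at 13.1 and 16.7 CPM in quiescent stellate-like and 8.47 and 11.9 CPM in ductal-like cells.

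**Figure D4:**
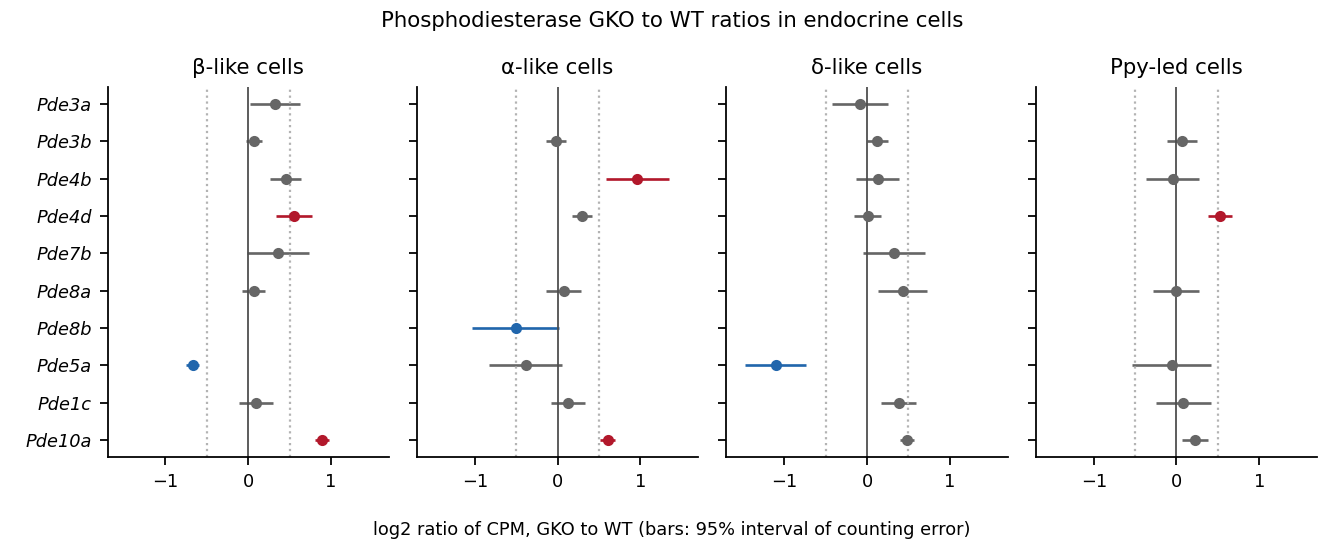
Log2 ratio of CPM, GKO to WT, for the members with at least 100 UMIs in each endocrine class, with 95% intervals of counting error and dotted lines at -0.5 and 0.5. Red points lie past the fold upward, blue points downward and gray points inside it. Pde10a lies right of 0 in all 4 classes and Pde5a lies at -0.67 in β- and -1.10 in δ-like cells, while Pde3b lies within 0.13 of 0 in each.

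Pooling the nonendocrine cells gave other values than the types within it. Pooled, Pde3a stood at 26.6 CPM in WT and 42.6 CPM in GKO, a log2 ratio of 0.68. Quiescent stellate-like cells, where Pde3a was highest, made up 2.72% of all kept WT and 6.49% of all kept GKO cells. They held 994105 of the 17603779 nonendocrine UMIs in WT and 2397969 of 21840210 in GKO. With the types of the GKO library weighted by the UMIs that each had in WT, the Pde3a ratio was 0.02. Pde5a went from a pooled ratio of 0.34 to -0.26 with the same weighting, which is a change of sign. Pde8a, with its highest level in endothelial-like cells, went from -0.38 to 0.04. Endothelial-like cells were 8.15% of all kept WT and 6.93% of all kept GKO cells. Of the nonendocrine UMIs they held 4949782 of 17603779 in WT and 3592479 of 21840210 in GKO. Pde10a and Pde4b kept their sign, at 0.43 and 0.33 after weighting. The pool and the weighting also took in acinar-, B cell-, neutrophil- and Gpr37l1 stellate-like cells and cells with a tied type or none. Among the named types with enough UMIs, Pde10a was at 0.21 in endothelial-like and -0.44 in activated stellate-like cells. In the named types with fewer UMIs, Pde10a stood at 13.1 and 16.7 CPM in quiescent stellate-like and 8.47 and 11.9 CPM in ductal-like cells. In macrophage-like cells it stood at 8.31 and 8.05 CPM. Which types the 0.43 of Pde10a comes from was not tested. The weighting was added after the pooled values were seen.

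**Figure D5:**
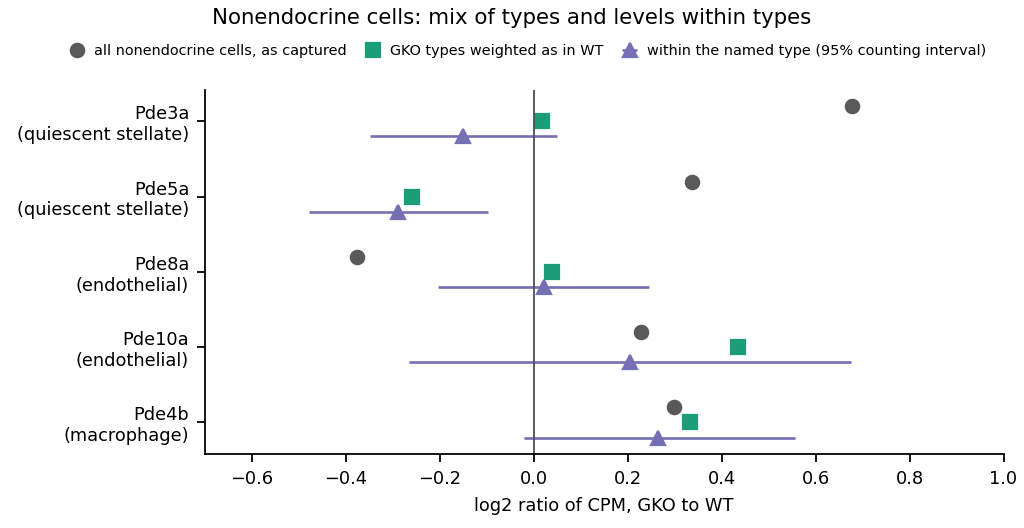
Log2 ratio, GKO to WT, of 5 members over all nonendocrine cells as captured (circles), with GKO types weighted as in WT (squares) and within the type named under each gene (triangles, with 95% intervals of counting error). For Pde3a, Pde5a and Pde8a the circle lies away from the square and the triangle, which lie close to each other.

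Of the 14 phosphodiesterase genes outside the 10, Pde2a, which cyclic GMP stimulates, was highest in endothelial-like cells at 118 CPM in WT and 131 CPM in GKO, a ratio of 0.15 (interval, -0.03 to 0.32). Pde1a stood at 158 CPM in WT and 119 CPM in GKO in quiescent stellate-like cells, a ratio of -0.41 (interval, -0.69 to -0.11), in the direction of Pde5a there. Pde6d, a prenyl-binding chaperone named for its place in the retinal enzyme, was at 35.3 and 35.1 CPM in δ-like and 62.4 and 63.8 CPM in quiescent stellate-like cells. In the endocrine classes, 15 pairs of these genes and a class had enough UMIs, and 1 was past the fold, Pde1a in α-like cells at 4.55 CPM in WT and 3.15 CPM in GKO, a ratio of -0.53 (interval, -1.06 to -0.00). Of all genes read in these classes, 2.35% to 3.8% lay past the fold upward and 1.73% to 2.58% downward.

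The genes whose profiles over the 18 sums were most like those of the members, among 6303 genes with at least 50 CPM in a sum, were Ndrg3 for Pde10a (r = 0.95), Vat1l for Pde1c (r = 0.97), Dmpk for Pde3a (r = 0.96), Cd300lg for Pde8a (r = 0.90) and Lgalsl for Pde5a (r = 0.85). Among the members, Pde3a and Pde5a had r = 0.81 and Pde7b and Pde8a r = 0.75, and Pde1c and Pde4b, at r = -0.75, ran opposite. The best match of Pde8b was at r = 0.69.

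The cyclases that make the substrates were read from a list of 16 genes, of which 14 were in the files by symbol. In β-like cells 6 of them had enough UMIs and 1 was past the fold upward, where 3.8% of all genes were, namely Gucy2c, the guanylyl cyclase receptor of guanylin peptides, at 3.93 CPM in WT and 6.25 CPM in GKO, a log2 ratio of 0.67. In Ppy-led cells the same gene stood at 6.14 CPM in WT and 3.86 CPM in GKO, a log2 ratio of -0.67, past the fold downward. Adcy1, a calmodulin-activated adenylyl cyclase, was at 7.93 CPM in WT and 4.43 CPM in GKO, a log2 ratio of -0.84, in α-like cells. Adcy3 was at 3.23 CPM in WT and 5.46 CPM in GKO, a log2 ratio of 0.76, in δ-like cells. Npr1, the receptor cyclase of atrial natriuretic peptide, was at 18.6 CPM in WT and 32.6 CPM in GKO, a log2 ratio of 0.81, in activated stellate-like cells. It was 1 of 4 cyclases read there, where 9.59% of all genes lay past the fold upward. Of the cyclases read in α-, δ-like and Ppy-led cells (6, 6 and 4), those named were the ones past the fold. Past it among all genes were 2.67% upward and 2.48% downward in α-like, 2.35% upward and 2.5% downward in δ-like and 2.8% upward and 1.73% downward in Ppy-led cells. The median ratio of the cyclases read was 0.21 in β-like, 0.08 in α-like, 0.15 in δ-like and 0.02 in Ppy-led cells, beside 0.09, 0.05, 0.03 and 0.06 over all genes.

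Effectors of cyclic nucleotides were read next. In α-like and δ-like cells none of the 11 protein kinase, exchange factor and inhibitor genes read in each was past the fold. Of all genes 2.67% upward and 2.48% downward were in α-like cells and 2.35% upward and 2.5% downward in δ-like cells, and nothing is read from the gap. In β-like cells 1 of 12 was past it upward (all genes, 3.8%), the cyclic GMP-dependent kinase gene Prkg2, at 0.741 CPM in WT and 1.25 CPM in GKO, a log2 ratio of 0.75. In Ppy-led cells 1 of 12 was past it upward (all genes, 2.8%), Prkg1, at 3.24 CPM in WT and 5.01 CPM in GKO, a log2 ratio of 0.63. Pkig, an inhibitor of protein kinase A, was at 299 CPM in WT and 452 CPM in GKO, a log2 ratio of 0.60, in quiescent stellate-like cells, and Prkaca, a catalytic subunit, at 10.9 CPM in WT and 18.0 CPM in GKO, a log2 ratio of 0.72, in macrophage-like cells. They were 1 of 9 and 1 of 6 effectors read in these groups, where 7.1% and 10.1% of all genes lay upward. Of the anchoring proteins that hold kinase and phosphodiesterase together, none was past the fold in an endocrine class. Of all genes there, 2.35% to 3.8% lay upward and 1.73% to 2.58% downward. The median ratio of the anchoring proteins was 0.22 in β-like, 0.22 in α-like, 0.15 in δ-like and 0.12 in Ppy-led cells, where all genes had 0.09, 0.05, 0.03 and 0.06. In quiescent stellate-like cells Akap8 was at 29.2 and 48.4 CPM and Akap11 at 74.4 and 47.5 CPM, with ratios of 0.73 and -0.65. There 6 anchoring proteins were read, and 7.1% of all genes lay upward and 4.65% downward. Of the transcription factors and coactivators, Crtc2 was past the fold in δ-like cells, at 5.86 CPM in WT and 9.20 CPM in GKO, a log2 ratio of 0.65. It was 1 of 8 read there (all genes, 2.35% upward).

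Genes known as targets of CREB, the transcription factor that protein kinase A activates, were read from a list of 15. Several of them are also immediate-early genes, which tissue dispersal is known to induce. In α-like cells 3 of 14 were past the fold upward and 0 downward, beside 2.67% upward and 2.48% downward of all genes. These were Npas4, at 27.4 CPM in WT and 57.5 CPM in GKO, a log2 ratio of 1.07, Nr4a1, at 21.2 CPM in WT and 40.6 CPM in GKO, a log2 ratio of 0.94, and Nr4a2, at 26.1 CPM in WT and 40.3 CPM in GKO, a log2 ratio of 0.62. The median of the list there was 0.27, beside 0.05 over all genes. In β-like cells 2 of 13 were upward, Nr4a1 (6.28 and 9.57 CPM) and Nr4a2 (5.69 and 8.08 CPM), and 1 downward (all genes, 3.8% upward and 2.58% downward), Rgs2, a regulator of G protein signaling, at 384 CPM in WT and 233 CPM in GKO, a log2 ratio of -0.72. The list median in β-like cells was -0.01. In δ-like cells 1 of 13 was downward and 0 upward (all genes, 2.35% upward and 2.5% downward). This was Dusp1, at 73.7 CPM in WT and 44.5 CPM in GKO, a log2 ratio of -0.73, and the list median was -0.23, beside 0.03 over all genes. In Ppy-led cells 1 of 13 was upward and 0 downward (all genes, 2.8% upward and 1.73% downward), Npas4, at 26.3 CPM in WT and 41.4 CPM in GKO, a log2 ratio of 0.65. In ductal-like cells 8 of 11 were upward (all genes, 14.5%), with a median of 0.59, where all genes had 0.11, and in activated stellate-like cells 4 of 13 were downward (all genes, 5.52%), with a median of -0.28, where all genes had 0.09. In macrophage-like cells 3 of 13 were upward, Sik1, Nr4a2 and Crem, and 0 downward (all genes, 10.1% upward and 4.68% downward), with a median of -0.05. In quiescent stellate-like cells 2 of 11 were downward, Irs2 and Nr4a2, and 0 upward (all genes, 7.1% upward and 4.65% downward), with a median of -0.22. In endothelial-like cells 1 of 12 was downward, Nr4a3, and 0 upward (all genes, 3.27% upward and 3.37% downward), with a median of -0.06. Dispersal and genotype cannot be told apart for these genes, since each genotype was dispersed as 1 pool.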

How the data were processed

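UMI counts of gene 3′ ends per barcode were deposited by the authors, 1 matrix per genotype. The submitters' processing notes name Cell Ranger and mm10, and the matrix header gives Cell Ranger 5.0.1. These counts are not normalized. They were taken as the values before the authors' removal of ambient RNA and doublets, and neither was removed here. A barcode needed 500 detected genes and no more than 10% of UMIs from mitochondrial genes, which left 7100 in WT and 6346 in GKO. Endocrine classes were set by the leading hormone at 10% of UMIs, and the other types by the marker list with most members detected, at least 3. Counts were summed per group and library and divided by the group's UMIs to give CPM. Intervals (95%) are exact Poisson for levels, exact binomial for shares and exact conditional binomial for ratios. Of these only the ratio intervals were tested, on simulated Poisson counts without further spread between cells. Free RNA was estimated from hormone transcripts in other classes. No genotype test was run, with 1 library each. The members and gene lists were chosen with earlier results of these data known. The genes named are the 10 members, other phosphodiesterase genes, at most 4 genes past the fold per list and class by size, and up to 3 genes with the most similar profile for each member. Alternatives changed barcode filters, hormone and marker thresholds, the scaling, cell weighting, thinning, free RNA subtraction, the UMI minimum and the fold. The tools were matplotlib 3.10.9, pandas 2.3.3, numpy 2.4.6 and scipy 1.17.1 under Python 3.11.15.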

Additional observations from a re-analysis of the deposited data

Results flagged for a closer look

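Genes of the pathway and CREB target lists that lay past the fold in opposite directions in different cell groups are given here as log2 GKO to WT ratios. The difference between groups was not tested for any of them, since each genotype had 1 library. Gucy2c was at 0.67 in β-like and -0.67 in Ppy-led cells. Nr4a2 was at 0.50 in β-like, 0.62 in α-like, 0.76 in macrophage-like and 2.01 in ductal-like cells, and at -0.97 in activated and -0.57 in quiescent stellate-like cells. Fosb was at 0.53 in ductal-like and -0.57 in activated stellate-like cells. Sik1, a kinase that restrains CREB coactivators, was at 0.91 in macrophage-like, 1.15 in ductal-like and -0.73 in activated stellate-like cells. Irs2 was at 0.96 in ductal-like and -0.64 in quiescent stellate-like cells. Rgs2 was at 0.67 in ductal-like, -0.72 in β-like and -0.91 in activated stellate-like cells. No member lay past the fold in opposite directions in different groups.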

How the results depend on the processing

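No paired analysis was possible because each genotype had 1 library, and for the same reason no library could be left out. Of 155 alternative values of members' log2 ratios past the fold, 155 kept their direction and 137 stayed past it. These include values that a setting could not change, such as nonendocrine ratios under rules that left out endocrine cells only. They also include Pde3a over pooled nonendocrine cells, which went from 0.68 to 0.02 with types weighted as in WT. The alternatives reuse largely the same counts on which the members were chosen, so the kept direction is a description. The count of 5 endocrine pairs higher in GKO was 3 without cells holding 3 nonendocrine markers, 3 less the median of all genes, 3 with cells weighted equally and 0 at a fold of 1. The 3 lower endocrine pairs came to 5 with no UMI minimum and 1 at a fold of 1. The 2 higher nonendocrine pairs came to 1 under a stricter filter on genes and mitochondrial UMIs, 1 with a hormone threshold of 5%, 1 with at least 4 markers, 6 after thinning, 5 with no minimum and 0 at a fold of 1. The 1 lower pair came to 2 with that filter, 2 less the median, 2 after free RNA subtraction, 5 with no minimum and 0 at a fold of 1. The Pde5a ratio in β-like cells was -0.84 without cells holding 3 nonendocrine markers, -0.75 without hormone genes in the total, -0.76 less the median, -0.48 after thinning and -0.60 after free RNA subtraction. The Pde10a ratio in β-like cells was 0.75 without cells holding 3 such markers and 1.09 after free RNA subtraction, and the same exclusion gave 0.48 in α-like and 0.32 in δ-like cells. That exclusion removed 45.3% of WT and 31.9% of GKO β-like cells. With acinar markers not counted, an alternative chosen after seeing the data, it removed 5.74% and 6.9954%, and the β-like ratios were -0.69 for Pde5a and 0.89 for Pde10a. The cause of these shifts was not tested.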
